A study of Mus musculus with 19 samples.

Results

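Sfmbt2 is 1 gene among the 22521 genes with total expression values in mouse morulae and in the extra-embryonic ectoderm, or ExE, of the egg cylinder at embryonic day 6.5, a tissue of trophoblast progenitors. It was followed through every table that holds it: total expression at both stages, 10723 genes with allele-specific read counts in morulae, and 23243 genes with allele-specific expression values in ExE. All embryos had wild-type fathers, and the strain label B6/129 x PWK puts the B6/129 alleles on the maternal side and the PWK alleles on the paternal side. Control (CTR) embryos came from mothers labelled Eed-fl/fl, which still have a working Eed gene. Maternal knockout (matKO) embryos came from mothers labelled Gdf9-Cre, Eed-fl/fl, in which the Cre recombinase acts in growing oocytes, so that the egg lacks Eed while the embryo carries the paternal copy. The groups were 2 CTR and 2 matKO morula libraries, and in ExE 2 CTR female, 2 CTR male, 4 matKO female and 5 matKO male libraries. Only 1 direction of the cross was made, so parental origin and strain cannot be told apart. Whether every library came from its own embryo or litter is not given by the labels. The p-values therefore describe only how far these libraries spread, which may be technical.

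Sfmbt2 encodes a Polycomb group protein with MBT domains, a module that binds methylated histones, and mice need it to maintain trophoblast progenitors and form a placenta. It is an imprinted gene whose paternal copy is expressed in early embryos and extra-embryonic tissues. Its maternal copy belongs to a small class of genes whose silence is inherited from the egg through the histone mark H3K27me3, rather than through DNA methylation. EED is a core subunit of PRC2, the enzyme complex that writes this mark. The question addressed here is what each parental copy of Sfmbt2 does when the egg has lacked Eed.

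In the deposited tables Sfmbt2 is listed on chromosome 2 of mm9 at 10292078 to 10292179 on the plus strand, a listed interval that covers only part of the gene. Its alleles were told apart over 21 sequence variants in morulae and 38 in ExE. RefSeq (GRCm38.p6) gives the gene 2 start sites, 1985 bases apart. The 250 bases before each are shown because mammalian Polycomb targets typically have CpG-rich promoters. Capitals mark each CG dinucleotide, which reads the same on both strands. The first lies at chr2:10370201-10370450 and the second at chr2:10372186-10372435, both GRCm38.p6 and plus strand.
Sfmbt2 start 1: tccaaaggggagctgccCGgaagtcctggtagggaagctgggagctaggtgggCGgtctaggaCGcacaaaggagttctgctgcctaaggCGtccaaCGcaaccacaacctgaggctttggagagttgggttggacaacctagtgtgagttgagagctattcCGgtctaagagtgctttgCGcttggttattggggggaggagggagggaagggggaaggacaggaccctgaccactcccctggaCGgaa
Sfmbt2 start 2: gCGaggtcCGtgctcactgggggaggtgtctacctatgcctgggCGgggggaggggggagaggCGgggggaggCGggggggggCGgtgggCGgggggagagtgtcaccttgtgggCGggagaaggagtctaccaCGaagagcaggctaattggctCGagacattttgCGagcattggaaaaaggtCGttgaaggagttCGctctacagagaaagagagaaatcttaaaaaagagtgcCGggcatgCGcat
The first window holds 8 CG at 58.4% G+C, and 43.0% of 32841 RefSeq mouse promoter windows of the same length hold at least as many. The second holds 15 CG at 60.8% G+C, a number reached by 27.3% of the windows, against a median of 6 over all windows. These letters are the reference sequence, and no value in the files measures the mark or DNA methylation at either start.

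Eed, the gene deleted in the mothers, checked the labels in every library. Its maternal share, meaning maternal signal as a percentage of maternal plus paternal signal, was 43.9 to 47.7% in the 4 CTR ExE libraries and 11.1 to 17.1% in the 9 matKO ExE libraries, with no overlap. In morulae CTR 1 had 200 maternal and 331 paternal Eed reads and CTR 2 had 148 and 174, against 54 and 283 in matKO 1 and 85 and 321 in matKO 2. The morula libraries held 3327373 to 5109159 allelic reads and the ExE libraries 4696355 to 9828943. Of 8 ExE markers, all were at 1 RPKM (reads scaled to transcript length and library size) or more in each CTR library and 6 to 8 in each matKO library, with summed levels of 506 to 633 RPKM and 442 to 740 RPKM. Some matKO ExE libraries stood apart in other genes. Males 4 and 5 held 0.310 and 3.77 RPKM of Esrrb, a trophoblast stem cell factor, against 26.0 to 55.8 RPKM in the other 11 libraries, and 312 and 295 RPKM of Hand1, a trophoblast differentiation factor, against 27.9 to 103 RPKM. Female 1 and males 4 and 5 had mean maternal shares of 15.8, 21.7 and 23.9% over 10 paternally expressed imprinted genes, of 20 listed, against 3.12 to 7.21% in the other libraries. The maternal share, maternal level and total level of Sfmbt2 in ExE are therefore also given without these libraries.

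In morulae, maternal Sfmbt2 transcripts were read only in embryos of knockout mothers. CTR 1 had 0 maternal reads of 55 allelic Sfmbt2 reads, which allows a share of up to 5.45% at a limit of 3 reads, and CTR 2 had 0 of 100, which allows up to 3%. The matKO 1 library had 59 maternal reads of 113, a share of 52.2% with a 95% Wilson interval of 43.1 to 61.2%. The matKO 2 library had 56 of 187, a share of 29.9% with an interval of 23.8 to 36.9%. Both matKO libraries lay above both controls, and their own intervals did not overlap. Such an arrangement of the 4 libraries was common, being met by 15.3% of the 7872 genes tested. Intervals and limits cover counting error only, since reads amplified by PCR are not independent molecules.

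**Figure D1:**
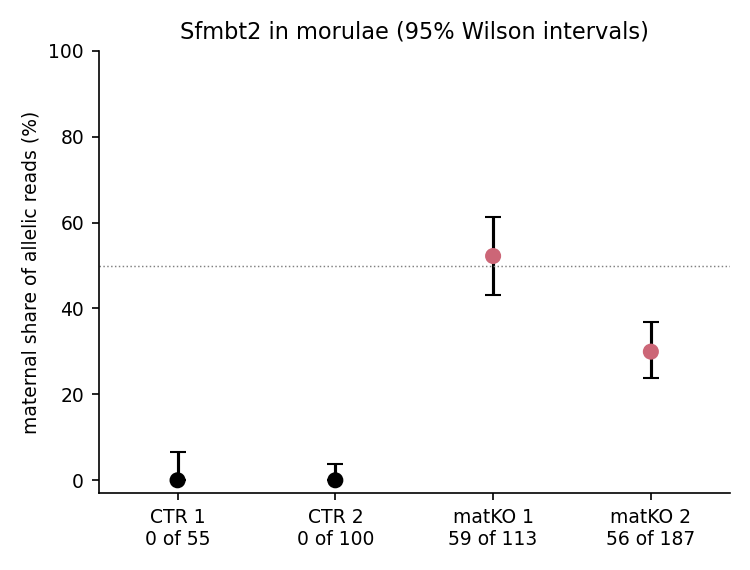
Maternal share of Sfmbt2 allelic reads (%, vertical axis) in the 4 morula libraries, with maternal reads of all allelic reads under each name and bars for 95% Wilson intervals; the dotted line marks equal alleles. Both controls sit at 0, matKO 1 at 52.2% and matKO 2 at 29.9%.

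Summed over the groups, 115 maternal and 185 paternal Sfmbt2 reads stood in matKO morulae against 0 and 155 in controls. With the control group at 3 maternal reads, the maternal to paternal ratio was at least 32.1-fold higher in matKO. In edgeR's quasi-likelihood test with the library as a block, the allele by genotype term for Sfmbt2 had an unadjusted p of 0.000263 and a Benjamini-Hochberg adjusted p of 0.345. That test called 2 of 7872 genes, or 0.0254%, 1 of them Gab1, and Sfmbt2 was not called. The call depended on the method: the adjusted p was 0.000994 with DESeq2, which called 14 genes. It was also under the threshold without CTR 1 (3.25e-05) and without CTR 2 (0.00147), and it was 1 without either matKO library. Each of these fits leaves 1 library in a group, which is then assumed to vary like the other group, and they called 123, 69 and, in both latter cases, 0 genes. Over all alternatives the adjusted p ran from 3.25e-05 to 1.

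The paternal copy of Sfmbt2 gave 5.01 and 10.3 allelic RPKM in CTR morulae and 7.20 and 10.8 in matKO morulae. The maternal copy was listed at 0 in both CTR libraries, at 6.88 in matKO 1 and at 3.05 in matKO 2. By allelic RPKM the maternal share was 48.9% in matKO 1 and 22.1% in matKO 2. The latter lay below its interval by reads, which began at 23.8%. Paternal levels overlapped between the groups while maternal levels did not. Such a separation was met by 15.3% of genes for the maternal share by reads, and how many genes meet it in maternal RPKM was not counted. Total Sfmbt2, which also counts reads that cover no variant, was 2.25 and 4.10 RPKM in CTR and 5.89 and 4.59 RPKM in matKO morulae. Its difference of 0.61 (SE 0.36) on the log2(RPKM + 1) scale was not called by limma (adjusted p = 1). No gene of 10329 was called in that comparison at all (0%), and 92 had an unadjusted p under 0.05. In simulated data this fit recovered 0% of log2 changes of 1, so the missing call says little. At this stage Sfmbt2 lay between the 62.8th and 72.3rd percentiles of all genes by total RPKM.

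In ExE, where Sfmbt2 was more abundant, the controls used the paternal copy almost alone. Maternal allelic RPKM was 0.465 in CTR female 1, 0.316 in CTR female 2, 0.0616 in CTR male 1 and 0.0666 in CTR male 2. Paternal allelic RPKM in the same libraries was 194, 165, 172 and 142. The maternal share of Sfmbt2 was thus 0.239, 0.192, 0.0359 and 0.0468%, a mean of 0.128% ± 0.102 (SD, n = 4). By reads, 14 of the 10483 allelic Sfmbt2 reads in the control count columns were maternal, or 0.134%. Total Sfmbt2 was 74.2, 61.9, 62.4 and 55.9 RPKM in these controls, placing it between the 89.8th and 91.9th percentiles of all genes. The tables of the stages were normalized separately, so the morula and ExE levels stand side by side without a test.

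Among the matKO females the maternal copy of Sfmbt2 was on in all 4 libraries. Female 1 held 212 maternal and 226 paternal allelic RPKM, a maternal share of 48.4%. Female 2 held 198 and 178, a share of 52.6%, and female 3 held 177 and 171, a share of 50.9%. Female 4 was the lowest, with 127 maternal and 187 paternal RPKM and a share of 40.4%. Every matKO female lay far above every control, and 3 of the 4 were within 3 percentage points of equal alleles.

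Among the matKO males the libraries ranged from near silence to equal use of both copies. Male 3 held 171 maternal and 168 paternal allelic RPKM, a share of 50.5%. Male 4 held 252 and 230, a share of 52.3%, and male 5 held 238 and 198, a share of 54.6%. Male 1 held only 30.2 maternal against 189 paternal RPKM, a share of 13.8%. Male 2 held 2.55 maternal against 155 paternal RPKM, a share of 1.62%. Males 1 and 2 were thus low in Sfmbt2, although male 2 still had 5.49 times the maternal RPKM of the highest control, and both carried maternal Eed shares within the matKO range, at 12.1 and 15.4%.

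**Figure D2:**
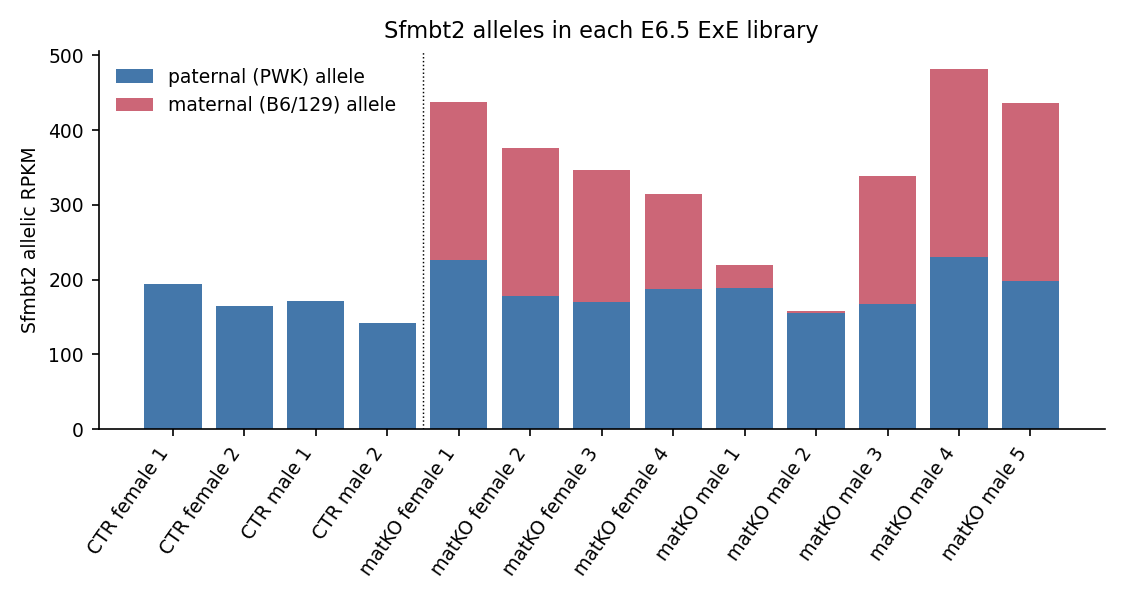
Sfmbt2 allelic RPKM (vertical axis) in each of the 13 ExE libraries, stacked as paternal (blue) and maternal (red) allele. Paternal bars stay between 142 and 230 RPKM in all libraries, while the maternal part is invisible in the controls, runs from 127 to 252 RPKM in 7 matKO libraries and is 30.2 and 2.55 RPKM in matKO males 1 and 2.

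Averaged over the sexes, the maternal share of Sfmbt2 was 41.2 percentage points higher in matKO than in CTR ExE. No other of the 315 arrangements of the genotype labels within sex gave a difference as large, so the exact two-sided permutation p was 0.00317, the smallest possible. The difference was 34.8 points with p = 0.02 by the same exact permutation test without female 1 and males 4 and 5. In a limma fit of log2 maternal over paternal RPKM, each after adding 1, the difference was 6.29 (SE 0.916) and the adjusted p was 0.0189. That test called 17 of 8453 genes (0.201%), 7 of them toward the maternal allele (0.0828%). All 9 matKO libraries lay above all 4 controls in Sfmbt2 share, an arrangement met by 0.355% of the 8453 genes. The size on the log2 scale depends on the value added, since the control maternal level is near 0, and it was 8.35 after adding 0.1. The limma call was lost without matKO female 1 (adjusted p = 0.0565), without any 1 of the 4 controls (0.0839 to 0.137), and without female 1 and males 4 and 5 together (0.108). It stood without males 4 and 5 together (0.0486).

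By sex, the log2 ratio difference for Sfmbt2 was 6.91 (SE 1.32, adjusted p = 0.0323 by limma) in females, where 116 genes were called (1.37%), of which 9 moved toward the maternal allele (0.106%). In males it was 5.68 (SE 1.27, adjusted p = 0.373 by limma), with 6 genes called (0.071%). The female call was lost when only autosomal genes were tested (adjusted p = 0.318). The male difference was called when male 2 was left out, at 6.66 with an adjusted p of 0.00308 in the limma fit. The exact permutation test on the maternal share gave p = 0.0667 in females alone, the smallest possible there, and p = 0.190 in males alone. The difference between the sexes was itself -1.22 (SE 1.83, adjusted p = 0.997 by limma), where 5 genes were called (0.0592%). It was -0.13 after adding 0.1 in place of 1, where the male difference was 8.28. In percentage points, matKO males averaged 34.6% ± 24.9 (SD, n = 5) and matKO females 48.1% ± 5.38 (SD, n = 4), and an exact permutation test over the 9 libraries gave p = 0.413. In the order of the group means, the matKO sexes did not differ beyond their spread. CTR males, at 0.0413% ± 0.00770 (SD, n = 2), lay below CTR females, at 0.215% ± 0.0333 (SD, n = 2). These control shares are near 0 and rest on few reads, 14 maternal ones over all control count columns, so their order says little.

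The rise in share came with the maternal copy and not with a lower paternal one. Maternal Sfmbt2 was 0.227 ± 0.198 RPKM (SD, n = 4) in CTR and 156 ± 87.8 RPKM (SD, n = 9) in matKO ExE. The log2(RPKM + 1) difference of 6.46 (SE 0.951) passed limma's test with an adjusted p of 0.0235, among 10 genes called higher on the maternal allele of 8453 (0.118%). All 9 matKO libraries lay above all controls in maternal RPKM, as for 0.864% of genes. This call too was lost without female 1 and males 4 and 5 (adjusted p = 0.0686 by limma), and without any 1 control or any 1 of matKO females 1, 2 and 3 (0.0529 to 0.134). Paternal Sfmbt2 was 168 ± 21.4 RPKM (SD, n = 4) in CTR and 189 ± 25.4 RPKM (SD, n = 9) in matKO. The paternal difference was 0.17 (SE 0.111, adjusted p = 0.555 by limma, 106 genes or 1.25% called), a 1.12-fold ratio of means, and the groups overlapped. In matKO libraries the highest paternal level was 1.48 times the lowest, and the highest maternal level was 98.8 times the lowest.

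Total Sfmbt2 was high in the libraries with a high maternal level. It was 159, 144.6, 134 and 120 RPKM in matKO females 1 to 4. In matKO males 1 to 5 it was 83.2, 60.7, 141, 184 and 156 RPKM. Of the 9 matKO libraries only male 2 lay within the control range of 55.9 to 74.2 RPKM. The means were 63.6 ± 7.66 (SD, n = 4) and 131 ± 38.4 RPKM (SD, n = 9), a 2.06-fold ratio. The exact permutation test within sex on the difference of 68.5 RPKM gave p = 0.00952. Across all 9915 genes the log2 difference of 0.99 (SE 0.241) was not called by limma (adjusted p = 0.122), where 5 genes were (0.0504%), and it was called without male 2 (1.10, adjusted p = 0.0399). Without males 4 and 5 the log2 difference was 0.80 (adjusted p = 0.0708 by limma). Without female 1 as well it was 0.77 (adjusted p = 0.105 by limma), and neither was called. The authors' deposited table of changed genes lists Sfmbt2 as up-regulated in ExE with log2 fold changes of 1.03 in females and 1.08 in males, and their morula tables do not list it. Summed allelic RPKM was 2.41 to 2.79 times total RPKM in every library, so the scales differ by a near-constant factor. In bulk ExE, fewer cells that express a gene and less RNA per cell cannot be told apart. Nor can an intermediate share in all cells be told apart from full use of both copies in some of them.

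**Figure D3:**
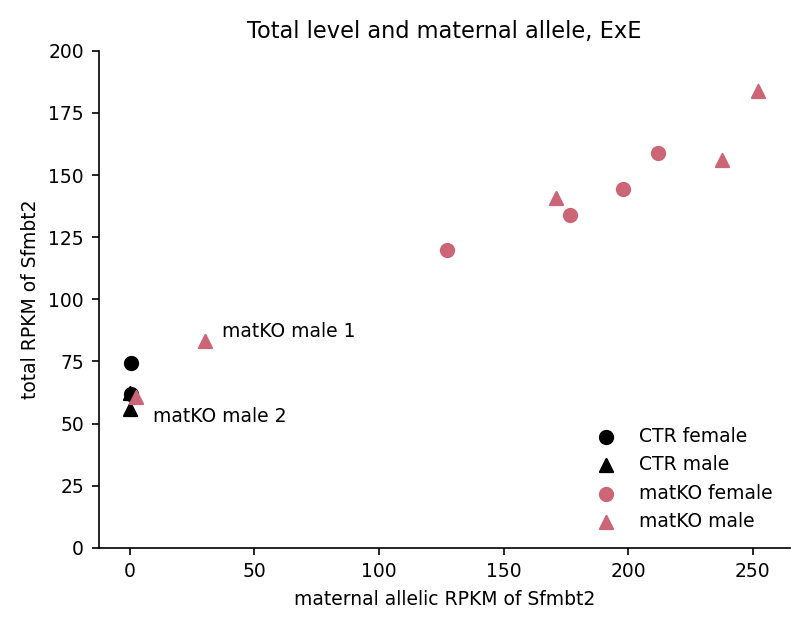
Total Sfmbt2 RPKM (vertical axis) against maternal allelic RPKM (horizontal axis) in 13 ExE libraries, black for CTR and red for matKO, circles for females and triangles for males. The libraries with maternal RPKM of 127 or more sit at 120 to 184 total RPKM, and matKO males 1 and 2 sit at 83.2 and 60.7, next to the controls at 55.9 to 74.2.

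The allelic read counts show the same spread, but under other column names. Of the 13 ExE count columns, 3 were closest in expression to the library whose name they bear and 10 to a different one, always of the right genotype (13 of 13). All 13 allelic RPKM columns matched their own library, so those carry the results above. The count column that best matched matKO male 1 held 617 maternal of 4276 Sfmbt2 reads, or 14.4% with a 95% Wilson interval of 13.4 to 15.5%. The column that best matched matKO male 2 held 50 of 3049, or 1.64% with an interval of 1.25 to 2.16%. The columns held 1930 to 10310 Sfmbt2 reads each, and neither interval reached those of the other 7 matKO columns, which were at 39.9 to 54.4%.

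The low Sfmbt2 shares of matKO males 1 and 2 were not shared by Gab1, Phf17 and Smoc1, which are of the same imprint class. Gab1, an adaptor in growth factor signalling, had maternal shares of 51.3% in male 1 and 51.3% in male 2, within its matKO range of 48.3 to 53.5% and above its controls at 6.65 to 18.3%. Slc38a4, an amino acid transporter of the placenta, had 22.5 and 45.3% in these males, the latter its highest matKO value, and its matKO range was 13.8 to 45.3% against 0 to 7.89% in controls. Its share in male 1 was below those of males 2 to 5 (33.6 to 45.3%) but above those of females 1 to 3 (13.8 to 21.1%). Phf17, a component of histone acetyltransferase complexes, had 52.8 and 55.3%, within a matKO range of 52.3 to 58.4% and above controls at 26.8 to 45.9%. Smoc1, a secreted calcium-binding matrix protein, had 58.3 and 60.0%, within a matKO range of 25.1 to 71.6% that overlapped its controls at 0 to 43.3%. Over the 9 matKO libraries the SD was 19.3 points for Sfmbt2, 1.72 for Gab1, 11.3 for Slc38a4, 1.82 for Phf17 and 14.3 for Smoc1. The difference between these spreads was not tested. In the averaged limma test Gab1 (2.90, SE 0.115, adjusted p = 3.60e-07), Slc38a4 (3.69, SE 0.466, 0.0123) and Phf17 (1.16, SE 0.180, 0.0251) were called with Sfmbt2, and Smoc1 (2.09, SE 0.404, 0.0890) was not.

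**Figure D4:**
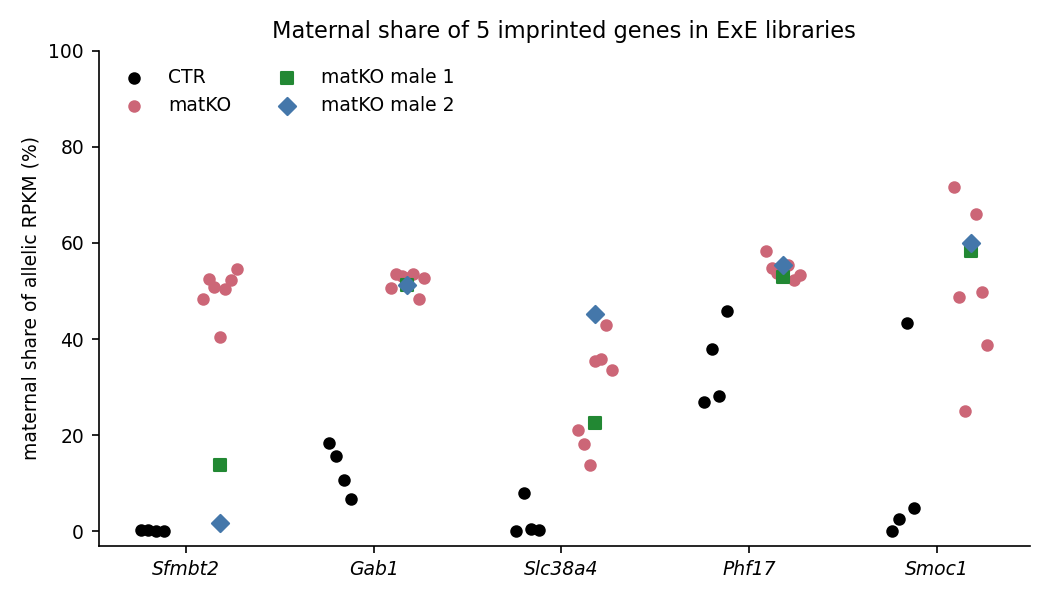
Maternal share of allelic RPKM (%, vertical axis) of Sfmbt2 and of Gab1, Slc38a4, Phf17 and Smoc1, each point 1 ExE library, black for CTR, red for matKO, with matKO males 1 (green square) and 2 (blue diamond) marked. Both males are the lowest matKO points for Sfmbt2, at 13.8 and 1.62%, and lie within the other matKO points for Gab1, Phf17 and Smoc1.

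The morula shares of these genes show how Sfmbt2 differed between the matKO libraries there. Gab1 was at 46.8% in matKO 1 and 44.1% in matKO 2, Phf17 at 43.9 and 46.8%, and Smoc1 at 54.5 and 62.1%. Slc38a4 was at 42.1 and 19.3%, lower in matKO 2 as Sfmbt2 was. The library with the lower maternal Sfmbt2 share, matKO 2, was therefore not low in Gab1, Phf17 or Smoc1. The shares of these other genes are given without read numbers or intervals, so their counting error is not shown.

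Sfmbt2 was among the more variable genes in matKO ExE. Of 8152 autosomal genes with at least 20 mean allelic reads, it ranked 303 by SD of the maternal share over the 9 matKO libraries, against a median of 5.14 points and a 95th percentile of 17.5. Among 1474 autosomal genes with at least 1000 mean allelic reads, the median SD was 1.93 points, the 95th percentile was 4.77 and Sfmbt2 ranked 5, at 19.3. Those above it were Ttll3 (34.4), Akr1b3 (24.7), Gm14872 (22.2) and Pop4 (19.5), named by rank after their values were seen. Their controls already had mean maternal shares of 72.8, 48.5, 73.9 and 9.56%. Of the 1474 genes, 10 had a maternal share of at most 1% in every control. Sfmbt2 had 40.6% ± 19.3 (SD, n = 9) in matKO, while the other 9, among them the ribosomal protein genes Rpl3 and Rpl13, had matKO means of 0.315% or less.

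The testable genes around Sfmbt2 had mean maternal shares between 43.1 and 72.5% in both genotypes. Of 11 genes listed within 1000000 bases on either side, 5 could be tested, the nearest 217 kb away, and all 5 lie at lower coordinates than Sfmbt2. On the other side Prkcq, 8030442B05Rik and Gm13293 were at or near 0 RPKM and could not be tested, so that flank is not covered. Itih5, a hyaluronan-binding matrix protein, was at 72.5% ± 9.84 (SD, n = 4) maternal in CTR and 70.7% ± 16.7 (SD, n = 9) in matKO, at under 1 RPKM in all libraries and with 45.7 mean allelic reads, and it reached 100% in matKO. Kin, a nuclear DNA- and RNA-binding protein, was at 49.1% ± 3.67 and 52.5% ± 2.64, and Taf3, a subunit of the transcription factor TFIID, at 53.2% ± 3.86 and 54.1% ± 4.87. Gata3, a trophoblast transcription factor, was at 45.3% ± 3.92 and 43.1% ± 5.29, and Atp5c1, a mitochondrial ATP synthase subunit with only 34.8 mean allelic reads, at 55.9% ± 5.61 and 49.0% ± 13.9. None of the 5 was called by limma, with adjusted p from 0.489 to 0.959, where 0.201% of all genes were called, so a count of 0 says little about them. In males 1 and 2, Kin was at 54.3 and 53.5%, Taf3 at 52.6 and 53.4% and Gata3 at 42.9 and 49.4%. Itih5 was at 96.3 and 68.3% and Atp5c1 at 59.5 and 34.02%, the pair with the fewest reads. RefSeq places 72 microRNA genes within Sfmbt2, of the Mir297, Mir466, Mir467 and Mir669 families apart from Gm25285, and none of them has a row in the total expression tables.

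**Figure D5:**
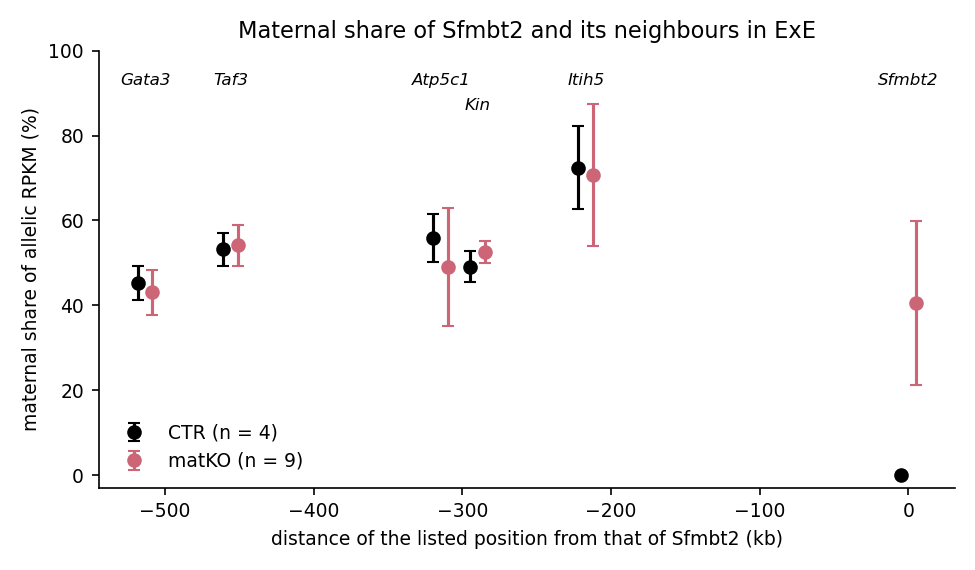
Mean maternal share of allelic RPKM (%, vertical axis) of Sfmbt2 and the 5 testable neighbours in CTR (black, n = 4) and matKO (red, n = 9) ExE against distance from Sfmbt2 in kb (horizontal axis), with bars for SD. The neighbours lie between 43.1 and 72.5% in both groups, and Sfmbt2 goes from 0.128% to 40.6%.

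The related genes and partners of Sfmbt2 were read against the background of all genes, of which 0.0504% were called for total ExE expression and 16.1% had an unadjusted p under 0.05. The list of MBT domain proteins and of YY1 and its relative, partners of SFMBT proteins in a Polycomb complex first described in Drosophila as PhoRC, held 11 genes, 7 of them tested in ExE. None was called in either direction by limma, none had an unadjusted p under 0.05, and their median log2 difference was -0.04 against 0.013 over all genes. At that background 0 of 7 is no result about the list. Yy1 was at 31.9 ± 5.99 RPKM in CTR and 28.9 ± 2.46 in matKO, and Sfmbt1, the closest relative of Sfmbt2, at 1.48 ± 0.120 and 1.35 ± 0.286 RPKM (SD, n = 4 and 9). Sfmbt1 used both alleles, at 49.6% ± 6.35 maternal in CTR and 42.7% ± 9.69 in matKO. In morulae 7 of the 11 were tested, and none was called or had an unadjusted p under 0.05 in limma. There 0 of all 10329 genes were called, and 0.891% had an unadjusted p under 0.05. The median of the list was -0.06 against 0.021 over all genes.

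Of 13 trophoblast stem cell genes, the cells in which Sfmbt2 is needed, all were tested in ExE. None was called by limma, which called 0.0504% of all genes. The unadjusted p was under 0.05 for 2, Gata3 (0.00659, log2 difference 0.48) and Ets2 (0.0216, 0.41). That share was near the 16.1% of all genes, and the median was -0.02. Elf5 was at 215 ± 40.8 and 215 ± 27.3 RPKM and Cdx2 at 4.60 ± 1.42 and 4.09 ± 1.58 RPKM (SD, n = 4 and 9), both factors of trophoblast identity. Of 9 differentiation genes, 2 were tested, Ascl2 and Hand1, and neither was called (adjusted p = 0.848 and 0.322 by limma) nor had an unadjusted p under 0.05. In morulae 9 stem cell and 4 differentiation genes were tested and limma called none, but it called 0 of all 10329 genes there. Prl3b1 alone had an unadjusted limma p under 0.05 (0.00810), where 0.891% of all genes had one. It was at 169 ± 50.3 RPKM in CTR and 449 ± 80.9 in matKO (SD, n = 2 each).

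Trophoblast markers in the libraries low in maternal Sfmbt2 were partly outside the range of the 4 matKO females. In male 2 Esrrb was at 38.6 RPKM, Eomes at 84.2, Bmp4 at 134, Cdx2 at 5.12, Ascl2 at 78.6 and Hand1 at 60.9, and Sox2 at 10.8 was just below the lowest female value of 11.1. In male 1 Cdx2 (4.14) and Hand1 (87.9) were within the female range, while Esrrb (25.99 against 28.5), Eomes (56.0 against 61.9), Bmp4 (87.9 against 90.1) and Sox2 (9.17 against 11.1) lay below the lowest female. Ascl2 in male 1, at 167 RPKM, was above the highest female, at 121. The CTR libraries spanned 35.5 to 40.9 RPKM for Esrrb, 63.3 to 75.2 for Eomes and 85.5 to 106 for Bmp4. They spanned 10.7 to 13.9 for Sox2, 3.20 to 6.56 for Cdx2, 87.7 to 123 for Ascl2 and 27.9 to 55.3 for Hand1. Against these ranges, male 1 was inside for Bmp4 and Cdx2 only, and male 2 for Esrrb, Sox2 and Cdx2 only. The highest total Sfmbt2, 184 RPKM, was in male 4, the library lowest in Esrrb. Of 8 markers of decidua, the maternal tissue around the embryo, 7 were at or near 0 in every ExE library, and the summed level was 0.558 to 1.04 RPKM in CTR and 0.470 to 1.35 in matKO. The 7 epiblast markers summed to 476 to 635 RPKM in CTR and 325 to 828 in matKO, mostly Utf1 (320 to 757 RPKM), while Pou5f1 and Nanog, the defining factors, reached at most 8 and 2.73 RPKM. The 5 ectoplacental cone and giant cell markers summed to 127 to 179 RPKM in CTR and 55.8 to 674 in matKO, highest in males 4 and 5, nearly all of it Ascl2 and Hand1, while Prl3d1, Prl2c2 and Tpbpa were at or near 0. Summed visceral endoderm markers were 6.55 to 9.86 RPKM in CTR and 1.15 to 64.0 in matKO, highest in male 5. The part of these markers in the Sfmbt2 result was not tested. Mean maternal shares over the paternally expressed imprinted genes were 3.94 to 7.21% in the controls. They were 15.8, 21.7 and 23.9% in matKO female 1 and males 4 and 5, where maternal Sfmbt2 was 212, 252 and 238 RPKM. In the remaining matKO libraries these shares were no higher than the control range, and maternal Sfmbt2 ran from 2.55 to 198 RPKM. Whether these shares bear on maternal Sfmbt2 was not tested.

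The genes most like Sfmbt2 in total expression over the 13 ExE libraries, by Pearson's r of log2(RPKM + 1) among 9914 genes, were Cdk18 (0.89), 2410003L11Rik (0.89), Arl15 (0.89), Naa11 (0.86) and Qars (0.86). Cdk18, a cyclin-dependent kinase, averaged 4.55 RPKM in CTR and 8.51 in matKO, with 6.31 in male 1 and 6.00 in male 2, the latter its lowest matKO value. Most like it in maternal share over the 9 matKO libraries, among 8044 genes, were Ccdc36 (0.93), Lman2 (0.92), Tspo (0.92), Uhrf1bp1 (0.91) and Prkar2a (0.89). Their shares ranged less widely than that of Sfmbt2 (1.62 to 54.6%). Lman2, a cargo receptor of the secretory pathway, ran from 47.7 to 51.3%, Ccdc36 from 88.9 to 100% and Prkar2a, a regulatory subunit of protein kinase A, from 39.1 to 53.5%. Tspo, a protein of the outer mitochondrial membrane, ran from 23.5 to 49.1%, with 33.4% in male 1 and 23.5% in male 2, and Uhrf1bp1 from 29.8 to 55.1%, with 34.9 and 29.8%. These coefficients are the highest of many and are given as a description.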

How the data were processed

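RNA-seq libraries were made from whole morulae or ExE lysates with the SMARTer Ultra Low Input and Nextera XT kits, which do not mark strand, per the labels' protocols. The submitters' processing notes list HISAT2 2.1.0, Cufflinks 2.2.1 and mm9, and the rule that split reads by allele is not given in the sources used here. The authors deposited total RPKM, allelic RPKM and whole allelic read counts per gene, and tables of changed genes with a log2 fold change, per the file headers. The read depth behind total RPKM is unknown. From these, limma 3.58.1 (R 4.3.3, trend) was run on log2(RPKM + 1) and on log2 of maternal + 1 over paternal + 1, with all 4 ExE groups in 1 fit, and edgeR 4.0.16 on morula counts with library as a block; DESeq2 1.42.0 was an alternative. Genes needed a mean of 20 allelic reads or 1 RPKM, and calls an adjusted p under 0.05. ExE counts served only by genotype, for the filter and 1 alternative, because their column names did not match. Neither 21 further per-sample columns nor the 2 CUT&RUN samples were used. No pair of libraries held identical values. Fits were tested on simulated data, with 50 genes changed at each size. The morula total fit recovered 0, 6, 46 and 68% of log2 changes of 1, 2, 3 and 4. For the same sizes the morula edgeR fit recovered 22, 70, 94 and 98%. Its simulated counts had the same fixed dispersion for every gene and no starting maternal share near 0. These rates therefore do not carry over to Sfmbt2, whose controls had 0 maternal reads, or to libraries that spread more. The ExE allelic fit recovered 72, 90, 100 and 98%. In that order these fits called 2, 7 and 12 unchanged genes. Permutation tests and figures used scipy 1.17.1, numpy 2.4.6 and matplotlib 3.10.9 under Python 3.11.15 with pandas 2.3.3. Named genes were Sfmbt2, Eed, the 4 other genes of the imprint class, 3 lists, the neighbours, the 5 most similar genes by each measure and the marker genes, and genes ranked by spread came later. The gene and the lists were chosen with earlier results of these data known. Alternatives were another pseudocount, filter, scaling, tool or design and leaving out each library.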

Additional observations from a re-analysis of the deposited data

How the results depend on the processing

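No direction reversed. The Sfmbt2 share difference in ExE (41.2 points) ran from 38.7 to 45.3 when each library was left out, with exact p of at most 0.0111. In the replicate block it was 28.97 points (exact p = 0.125, where 0.0625 is the smallest possible). In every ExE block fit only numbers 1 and 2 have controls, so 5 of the 9 matKO libraries add nothing to the difference while males 1 and 2 stay. Same-numbered ExE libraries did not deviate together (r of -0.04 to 0.06 in total RPKM, -0.10 to 0.04 in allelic ratio), and those of the morulae, 2 a group, did (r = 0.702 and 0.151), which their numbers alone do not make a pairing. The replicate block gave 5.11 (adjusted p = 0.367) for the averaged log2 ratio, 7.05 (0.323) in females and 5.26 (0.179) for the maternal level in limma, calling 0, 0 and 1 genes where 17, 116 and 13 were called. Male and sex difference values were 3.18 (0.702) and -3.87 (0.671). It gave 0.71 (adjusted p = 0.0301) for total ExE, with 45 called instead of 5, and 8.70 (0.00146) for the morula term, with 43 called instead of 2. Without female 1 and males 4 and 5, chosen after seeing the data, the averaged, female and maternal-level values were 5.71, 6.90 and 5.77 and none was called. In females 6.91 was also not called without a filter (0.0631) or with autosomes alone (0.318). Leaving out each library gave 6.07 to 6.78 for the averaged ratio (adjusted p under 0.05 in 8 of 13), 6.82 to 7.05 in females (7 of 13) and 5.23 to 6.66 in males (1 of 13). It gave 6.21 to 6.98 for the maternal level (6 of 13), 0.90 to 1.10 for total ExE (1 of 13) and 8.16 to 9.30 for the morula term (2 of 4). DESeq2 gave 8.11 and limma on allelic RPKM 2.25 (adjusted p = 0.876) for the morula term, where leaving out libraries called 0 to 123 genes. These morula values rest on controls with 0 maternal reads and are no bound. Called genes ran from 0 to 30 for the averaged ratio, 0 to 185 in females, 0 to 8 in males, 0 to 27 for the sex difference, 1 to 31 for the maternal level, 1 to 201 for the paternal level (106), 3 to 69 for total ExE and 0 to 164 for total morula (0). The causes were not tested. The male, sex difference, paternal and morula total values kept their side of the threshold in all alternatives run, except males without male 2. A minimum of 5 RPKM removed Sfmbt2 in morulae. Leaving out matKO males 1 and 2 together was not run, since they would have been chosen by their Sfmbt2 share. Only 155 control morula reads cover Sfmbt2, and 0 were maternal. At a limit of 3 reads, a maternal share of up to 1.94% is not excluded there.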
